A study of Mus musculus with 9 samples.

Results

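The interleukin-20 family of mouse back skin is described here through 9 genes, chosen by name from a table of 29205 genes. They comprised 4 ligand genes (Il19, Il20, Il22 and Il24), 4 membrane receptor chains (Il22ra1, Il20ra, Il20rb and Il10rb) and the gene of a soluble receptor (Il22ra2). Bulk RNA was sequenced from the skin of male BALB/c mice aged 6 to 8 weeks, with 3 libraries in each of 3 groups. All mice were shaved and treated with depilatory cream. The control group was not given imiquimod, and the sources do not state whether it received a vehicle cream or gavage. The IMQ group had 62.5 mg of 5% imiquimod cream put on the back each day for 5 days in a row. Whether it received a gavage without LYS is not stated either. Imiquimod is an agonist of Toll-like receptor 7 and gives psoriasis-like lesions in mice. The LYS group had the same cream and was also given Longkui Yinxiao soup, a decoction of botanical drugs, by gavage at the higher of the study's doses. Back skin was taken on day 13 in every group. The study describes the samples of a group as biological replicates, but whether the 3 libraries came from 3 mice is not given. The p-values therefore measure the spread between these libraries, which may not be the spread between mice. The LYS group carried both agents, and no group received LYS without IMQ.

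The ligands of this family are helical cytokines related to interleukin-10. Interleukin-22 is made mainly by T cells and innate lymphoid cells and acts through a receptor of IL-22RA1 and IL-10RB. Interleukin-19, interleukin-20 and interleukin-24 come largely from myeloid cells and keratinocytes, and act through IL-20RA paired with IL-20RB. Interleukin-20 and interleukin-24 can also use IL-22RA1 paired with IL-20RB. The private chains are expressed mostly by epithelial cells, while IL-10RB is widespread. IL-22BP, the product of Il22ra2, binds interleukin-22 in solution and keeps it from its receptor. Signalling runs through Janus kinases and STAT3, and in epidermis it is known to drive antimicrobial peptides and stress keratins and to hold back terminal differentiation.

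Several members are neighbours in the genome (GRCm38, GENCODE M21). Il24 (ENSMUSG00000026420, chr1:130882074-130887454), Il20 (ENSMUSG00000026416, chr1:130906985-130911451) and Il19 (ENSMUSG00000016524, chr1:130932656-130940115) follow each other on the minus strand, 19530 and 21204 bases apart, and Il10 begins 79729 bases beyond Il19. Il22ra2 (ENSMUSG00000039760, chr10:19621998-19634681) and Il20ra (ENSMUSG00000020007, chr10:19712570-19760053) are neighbours on the plus strand with a gap of 77888 bases. Il22ra1 (ENSMUSG00000037157, chr4:135728172-135752140) lies 19990 bases from Ifnlr1, the interferon lambda receptor gene, and Il10rb (ENSMUSG00000022969, chr16:91406164-91425834) lies 574 bases from Ifnar2, an interferon alpha and beta receptor gene. Il20rb (ENSMUSG00000044244, chr9:100457719-100486788) and Il22 (ENSMUSG00000074695, chr10:118204942-118210047) have no other member beside them. Counting was limited for members with copies or overlaps. Il22 has a near-copy, Iltifb, whose transcript is identical at 97.4% of 1110 aligned bases, so reads that match both could be dropped, and Il22 counts are uncertain. Iltifb itself had 0 or 1 count per library. Il20ra is overlapped by the antisense gene Gm33332 (0 to 4 counts per library), from which a library kit that does not mark strand cannot tell it apart. Il10rb is overlapped on its own strand by Gm21970.

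RefSeq promoters of GRCm38.p6 were given for 6 of the 9 genes, and the 3 that held STAT, NF-kB or AP-1 letters are shown. Each run ends at the gene's start or just before it, reads 5′ to 3′ on the gene's strand, and has in capitals the matches to 4 motifs. These were the STAT letters TTCNNNGAA, the AP-1 letters TGANTCA, the NF-kB motif and the TATA letters TATAAA. The TATA letters were searched on the gene's strand only and the others on both strands. The windows are chr1:130940116-130940365 (minus strand), chr4:135727909-135728158 (plus strand) and chr10:19712337-19712569 (plus strand).
Il19: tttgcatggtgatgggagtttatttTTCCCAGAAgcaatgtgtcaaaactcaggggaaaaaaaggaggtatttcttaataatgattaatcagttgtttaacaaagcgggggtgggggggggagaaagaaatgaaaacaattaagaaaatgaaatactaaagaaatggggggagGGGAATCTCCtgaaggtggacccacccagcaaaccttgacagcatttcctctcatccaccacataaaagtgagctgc
Il22ra1: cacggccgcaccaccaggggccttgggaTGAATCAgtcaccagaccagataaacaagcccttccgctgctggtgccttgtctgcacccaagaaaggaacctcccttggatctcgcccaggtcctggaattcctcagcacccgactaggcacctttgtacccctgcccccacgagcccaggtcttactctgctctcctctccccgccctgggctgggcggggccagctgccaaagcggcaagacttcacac
Il20ra: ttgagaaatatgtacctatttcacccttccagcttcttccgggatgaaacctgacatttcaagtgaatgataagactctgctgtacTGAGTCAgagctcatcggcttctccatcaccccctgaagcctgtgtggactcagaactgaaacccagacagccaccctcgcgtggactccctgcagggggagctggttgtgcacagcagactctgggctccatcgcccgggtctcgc
The Il19 window held a STAT match, at -225 from the RefSeq start, and an NF-kB match, at -77. Among 32851 promoters of 250 bases, 7.02% held the STAT letters and 3.90% the NF-kB motif. Il22ra1 held AP-1 letters at -222 and Il20ra at -164, and 6.75% of all promoters did. In the other windows, Il22 held only TATA letters, at -170 (7.59% of all promoters), while the Il20 window, of which 95 bases lie outside the GENCODE gene, and the Il20rb window, which lies inside it, held none of the 4. A match describes letters and is not evidence of binding.

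Across the 3 groups, IMQ skin held more RNA of every member than control skin. In LYS skin, Il19, Il20 and Il22 stood above every IMQ library in 2 of 3 libraries, whereas Il22ra1, Il20ra, Il20rb and Il22ra2 stood below IMQ in all 3. Of the members tested, 7 passed the test between IMQ and control, where 51.0% of all genes tested passed. None passed between LYS and IMQ, where no gene did (0%), and 5 passed between LYS and control, where 28.0% of genes did. Counts were scaled with TMM, given as counts relative to library size in CPM, and tested with edgeR's quasi-likelihood test. Calls needed a Benjamini-Hochberg adjusted p under 0.05 together with a log2 fold change beyond 0.58 in either direction. Summed counts per library ranged from 14658645 to 19609878, so 1 count was worth much less than 1 CPM.

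**Figure D1:**
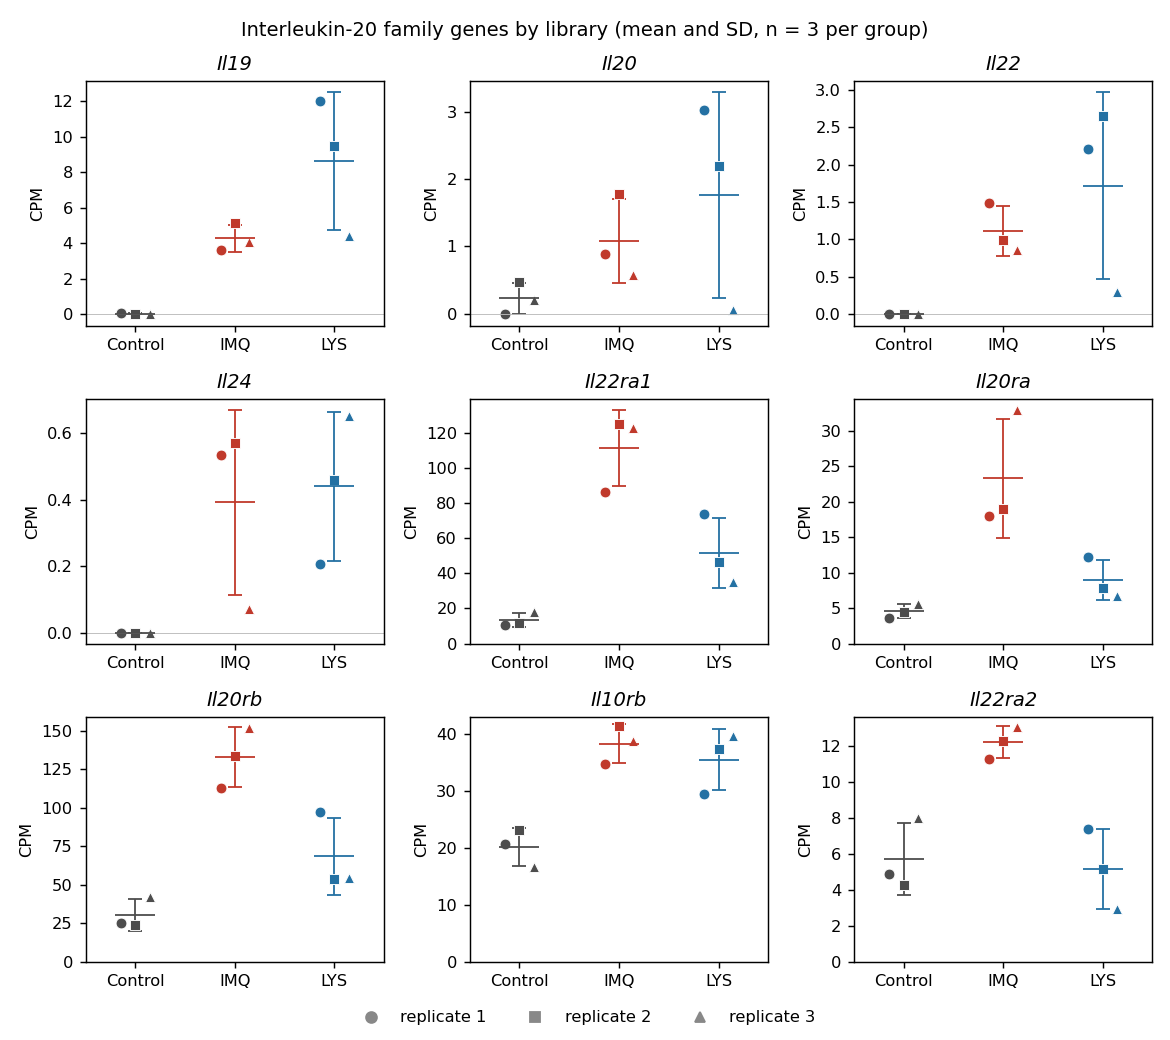
CPM of the 9 genes in each library, on linear axes that differ between panels. Points are libraries with their replicate number as the symbol, and the bars are the mean and SD of 3 libraries. Il22ra1, Il20ra, Il20rb and Il22ra2 peak in IMQ, and Il19, Il20 and Il22 are highest in LYS replicates 1 and 2.

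The comparison of IMQ with control asked what imiquimod did to the family. Among ligands, Il19 was close to absent in control skin, with 1, 0 and 0 counts, and reached 61, 72 and 57 counts in IMQ. Its CPM was 0.0488, 0 and 0 in control and 3.62, 5.12 and 4.08 in IMQ. Since control was at the floor of 3 counts per library, the rise is given as at least 29.4-fold (adjusted p = 4.04e-05, edgeR). Il22 had 0 counts in all 3 control libraries, which allows up to 3 counts in each. IMQ libraries had 25, 14 and 12 counts of Il22 (1.48, 0.996 and 0.860 CPM), a rise of at least 7.64-fold (adjusted p = 7.47e-04, edgeR). The groups did not overlap for either gene.

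Il24 and Il20 had too few counts for the filter and were not tested in this comparison. Il24 was at 0 in all control libraries and at 9, 8 and 1 counts in IMQ, with means at least 2.69-fold apart. Il20 had 0, 10 and 4 counts in control and 15, 25 and 8 in IMQ, with mean CPM of 0.224 ± 0.237 and 1.08 ± 0.625 (SD, n = 3). IMQ libraries lay above control for both genes, with IMQ replicate 3 the lowest for each. Without the filter, Il24 gave an adjusted p of 0.00906 and Il20 of 0.0306 (edgeR), while in a fit of all 9 libraries Il20 gave 0.116.

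All 4 membrane chains rose in IMQ. Il22ra1, the private chain of the interleukin-22 receptor, measured 10.6, 11.5 and 18.0 CPM in control and 86.1, 124.7 and 122.5 CPM in IMQ. Every IMQ library was above every control library, and the fitted rise was 8.65-fold, or 3.11 ± 0.25 on the log2 scale (SE, adjusted p = 4.07e-05, edgeR). Il20ra, which pairs with IL-20RB, measured 3.66, 4.49 and 5.60 CPM in control against 18.0, 19.0 and 33.0 CPM in IMQ, where replicate 3 stood highest. That rise was 5.28-fold (log2 2.40 ± 0.29, adjusted p = 2.53e-04). Il20rb, the shared chain of the interleukin-19, interleukin-20 and interleukin-24 receptors, went from 25.0, 24.0 and 42.1 CPM to 113.2, 133.9 and 151.9 CPM, 4.56-fold higher (log2 2.19 ± 0.24, adjusted p = 1.65e-04). Il10rb, the widespread chain, showed the smallest rise of the 4, from 20.7, 23.1 and 16.6 CPM to 34.6, 41.4 and 38.7 CPM, 1.98-fold (log2 0.98 ± 0.15, adjusted p = 8.29e-04).

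Il22ra2, whose product is the soluble antagonist, measured 4.88, 4.26 and 7.97 CPM in control and 11.3, 12.2 and 13.0 CPM in IMQ. The groups stood apart and the rise was 2.22-fold (log2 1.15 ± 0.26, adjusted p = 0.00537). With scaling to library totals alone, which lowered the median log2 fold change of all genes by 0.45, the calls of Il22ra2 and Il10rb were lost, and so they were with limma on FPKM.

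In all, 7 of the 7 members tested were called higher. Of these, Il19 and Il22 passed the filter through their IMQ libraries alone, so their direction was fixed once they were tested. Of the 15976 genes tested 51.0% were called, 24.1% higher and 26.9% lower. DESeq2 and edgeR without the filter called all 9 members higher, beside 20.3% and 14.5% of all genes. The median log2 fold change was 2.40 over the members tested and -0.062 over all genes tested. All 9 members, the untested ones included, had IMQ libraries wholly above control, as 31.6% of the genes tested did. Keratinocyte markers were higher too: 10 of 10 were called higher, none was at 0, and their summed level was 3508 to 5787 CPM in control and 19751 to 20276 CPM in IMQ. Their part in the rise of the receptor chains was not tested. In bulk skin, fewer cells of a type and less RNA per cell cannot be told apart.

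The comparison of LYS with IMQ asked whether the family differed in IMQ-treated skin when LYS was given by gavage. It shares the IMQ libraries with the comparison above. Since a gavage in the IMQ group is not stated, LYS and the gavage itself cannot be told apart. No member was called, and neither was any of the 15460 genes tested (0%) by edgeR. The smallest adjusted p of any gene was 0.0591, and 5435 genes (35.2%) had an unadjusted p under 0.05. DESeq2 called 3345 genes. Among the 8 members tested, 5 had an unadjusted p under 0.05, of which 4 were lower and 1 was higher in LYS, where 15.9% of all genes were lower and 19.3% higher at that p. The median log2 fold change was -0.53 over the members tested and 0.036 over all genes.

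Ligand values in LYS split by library. Il19 measured 12.0, 9.49 and 4.39 CPM in LYS replicates 1, 2 and 3 (174, 165 and 74 counts), against 3.62 to 5.12 CPM in IMQ. Only LYS replicate 3 lay within the IMQ range, and the log2 difference of 1.01 ± 0.38 (SE, 95% interval 0.11 to 1.92) was not called (adjusted p = 0.113, edgeR). That adjusted p ran from 0.0595 to 0.274 over the alternatives.

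Il22 gave 32, 46 and 5 counts in LYS, or 2.21, 2.65 and 0.297 CPM, so that replicates 1 and 2 exceeded every IMQ library and replicate 3 lay below every one. Il20 behaved alike, with 44, 38 and 1 counts in LYS (3.03, 2.19 and 0.0593 CPM). For these genes the log2 difference from IMQ was 0.61 ± 0.70 and 0.69 ± 0.97 (SE), with adjusted p of 0.560 and 0.633 (edgeR). The intervals ran from -1.05 to 2.27 for Il22 and from -1.60 to 2.99 for Il20, so neither a fall nor a rise could be seen at this depth and spread. Il24 went the other way among the LYS libraries, with 3, 8 and 11 counts, and was not tested. Without LYS replicate 3 the log2 difference was 1.33 for Il19, 1.11 for Il22 and 1.27 for Il20, with adjusted p of 0.155, 0.189 and 0.226.

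Receptor values in LYS were lower than in IMQ for 3 of the 4 membrane chains. Il22ra1 measured 73.6, 46.7 and 34.8 CPM in LYS replicates 1 to 3, all under the lowest IMQ library at 86.1 CPM. Its log2 difference was -1.10 ± 0.29 (adjusted p = 0.0644, edgeR). Il20ra measured 12.1, 7.88 and 6.76 CPM against at least 18.0 CPM in IMQ, with a log2 difference of -1.38 ± 0.32 (adjusted p = 0.0591). Il20rb measured 97.2, 53.7 and 54.4 CPM against at least 113.2 CPM in IMQ, with a log2 difference of -0.95 ± 0.26 (adjusted p = 0.0653). LYS replicate 1 was the highest of its group for all 3 chains. Il10rb differed from this pattern, with 29.4, 37.3 and 39.6 CPM in LYS and overlap with IMQ. Its log2 difference was -0.11 ± 0.15 (95% interval -0.46 to 0.24, adjusted p = 0.633), which turned positive with scaling to library totals.

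Il22ra2 stood at 7.37, 5.12 and 2.91 CPM in LYS, below the IMQ range of 11.3 to 13.0 CPM and overlapping the control values. The log2 difference from IMQ was -1.25 ± 0.33 (adjusted p = 0.0644, edgeR). These 4 genes made up the members whose groups did not overlap, all lower in LYS, as 19.3% of the genes tested were.

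The calls in LYS against IMQ depended on the fit. DESeq2, edgeR without the filter, a fit of all 9 libraries and edgeR without LYS replicate 1 each called Il22ra1, Il20ra, Il20rb and Il22ra2 lower. The share of all genes called lower in those fits was 9.49%, 3.53%, 8.62% and 11.9%. Without IMQ replicate 1 only Il22ra1 and Il20ra of the members were called, beside 5.03% of all genes. Over the alternatives, the adjusted p ran from 0.00573 to 0.220 for Il22ra1 and from 0.00157 to 0.220 for Il20ra. No setting called a ligand gene in this comparison.

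**Figure D2:**
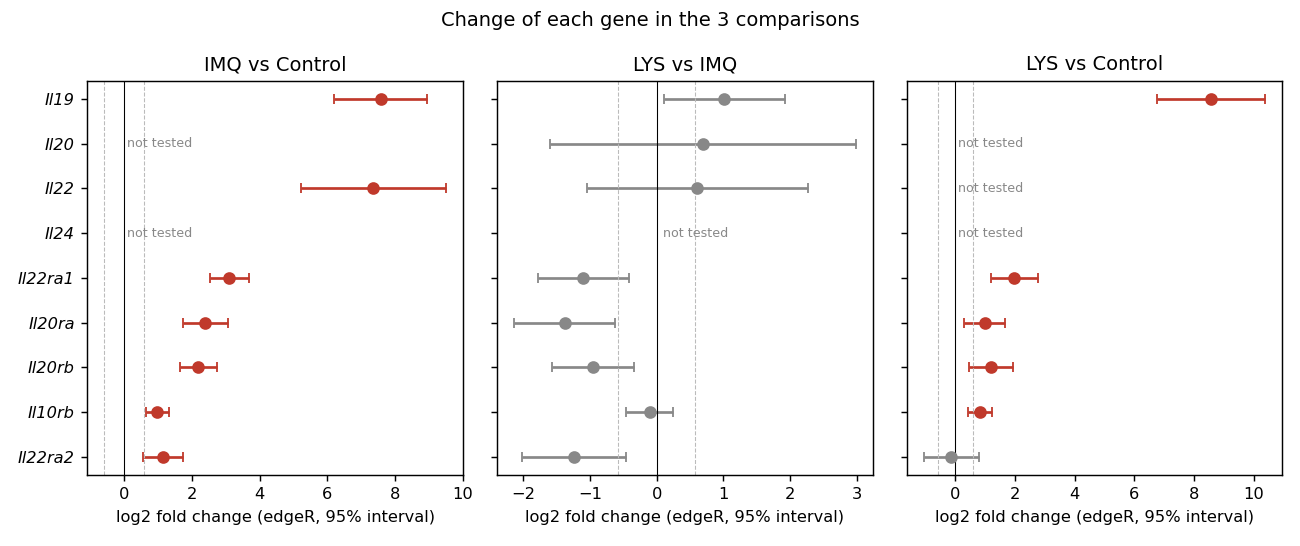
Log2 fold change of each member in the 3 comparisons from edgeR, with 95% intervals; horizontal scales differ between panels, red marks a called gene and dashed lines mark 0.58 on either side of 0. In LYS against IMQ, the intervals of Il22ra1, Il20ra, Il20rb and Il22ra2 lie below 0, yet no gene is called.

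Set against control, LYS skin still had raised levels for most members. This comparison shares its libraries with both comparisons above. Of 6 members tested, 5 were called higher, where 15.1% of 16003 genes were called higher, 12.9% were called lower and 28.0% were called in all. The median log2 fold change was 1.08 over the members tested and -0.0077 over all genes. Il19, which passed the filter through its LYS libraries alone, was at least 59.2-fold higher (adjusted p = 5.82e-04, edgeR). Il22ra1 was 3.92-fold higher (log2 1.97 ± 0.34, adjusted p = 0.00529), Il20rb 2.28-fold (adjusted p = 0.0278), Il20ra 1.97-fold (adjusted p = 0.0407) and Il10rb 1.77-fold (adjusted p = 0.0106). The calls of Il20ra and Il20rb were the weakest, since 8 and 3 of 13 alternatives lost them.

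Il22ra2 showed no call in LYS against control, with a log2 difference of -0.14 ± 0.40 (95% interval -1.06 to 0.79, adjusted p = 0.819, edgeR). The filter left out the other 3 ligands. Il22 and Il24 means were at least 11.8-fold and 3.02-fold above control, and their groups did not overlap. Il20 overlapped control because LYS replicate 3 had 1 count. DESeq2, which kept these genes, called 8 members higher beside 14.1% of all genes, Il22 (adjusted p = 4.00e-06) and Il24 (adjusted p = 0.00310) among them.

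On the log2(CPM + 0.5) scale, the LYS libraries were placed between the control mean (0) and the IMQ mean (1) for the receptor genes. The place of the LYS mean was 0.87 for Il10rb, with libraries from 0.60 to 1.06. It was 0.62 for Il22ra1 (0.46 to 0.81), 0.53 for Il20rb (0.40 to 0.80) and 0.40 for Il20ra (0.24 to 0.61), so the libraries of these 4 chains overlapped. For Il22ra2 it was -0.16 (-0.76 to 0.36). No place is given for the ligand genes, since control levels near 0 leave it to the pseudocount.

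Levels can be compared between genes per length, as FPKM. In control and IMQ each ligand gene lay below every receptor gene, while in LYS the mean of Il19 exceeded those of Il20ra and Il22ra2. Summed over the 4 ligands, FPKM was 0.0480 to 0.430 in control, 4.01 to 6.01 in IMQ and 15.0, 13.3 and 4.89 in LYS replicates 1 to 3. Il19 supplied 56.0%, 61.4% and 73.1% of that sum in the IMQ libraries and 69.0%, 64.4% and 82.9% in LYS. The 4 membrane chains summed to 19.2 to 27.9 FPKM in control, 72.1 to 88.7 FPKM in IMQ and 63.8, 45.6 and 42.1 FPKM in LYS. The LYS libraries with the highest ligand sum were replicates 1 and 2, and replicate 3 had the lowest ligand and receptor sums of its group.

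The order of the receptor genes by FPKM differed between control and IMQ. In control, Il20rb (8.22 ± 3.10 FPKM, SD, n = 3), Il10rb (5.95 ± 0.72) and Il22ra1 (5.92 ± 2.01) overlapped with their neighbours. Il22ra2 (2.60 ± 1.02) and Il20ra (2.14 ± 0.52) came below and also overlapped. In IMQ, Il22ra1 stood first at 37.0 ± 4.83 FPKM and Il20rb followed at 27.1 ± 2.39 FPKM, without overlap. Il10rb (8.63 ± 0.32) and Il20ra (8.20 ± 2.61) overlapped, with Il22ra2 (4.19 ± 0.13) and Il19 (3.19 ± 0.43) next and apart from each other. At the foot, Il22 (0.878 ± 0.328) overlapped Il20 (0.780 ± 0.426), and Il24 came last at 0.248 ± 0.178 FPKM. In LYS, Il22ra1 (20.5 ± 7.15) and Il20rb (16.6 ± 5.43) led with overlap, and Il19 (7.65 ± 3.24) overlapped both Il10rb (9.62 ± 1.76) and Il20ra (3.76 ± 1.05).

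Ratios between receptor genes were compared as log2 of (FPKM + 0.1), with an exact two-sided permutation test whose smallest p for 3 against 3 is 0.1, so none of the 9 tests could pass 0.05. The soluble to membrane ratio, Il22ra2 to Il22ra1, was 0.483, 0.393 and 0.463 in control. It was 0.137, 0.103 and 0.112 in IMQ and 0.106, 0.118 and 0.0923 in LYS. The control libraries stood apart above all 6 others, by 1.93 log2 units from IMQ and 2.08 from LYS (exact permutation p = 0.1, adjusted p = 0.18 each), while LYS and IMQ overlapped (difference -0.15, exact p = 0.5). Both genes had thus risen in IMQ, but Il22ra1 by more. Il20ra to Il22ra1, the ratio of chains that can pair with IL-20RB, was also highest in the 3 control libraries (difference of IMQ from control -0.79, exact p = 0.1) and overlapped between IMQ and LYS (-0.20, exact p = 0.6). Il10rb to Il20rb had no stable place in LYS. LYS replicate 1 was at 0.337, within the IMQ range of 0.284 to 0.344, while replicates 2 and 3 were at 0.769 and 0.806, within the control range of 0.441 to 1.06.

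**Figure D3:**
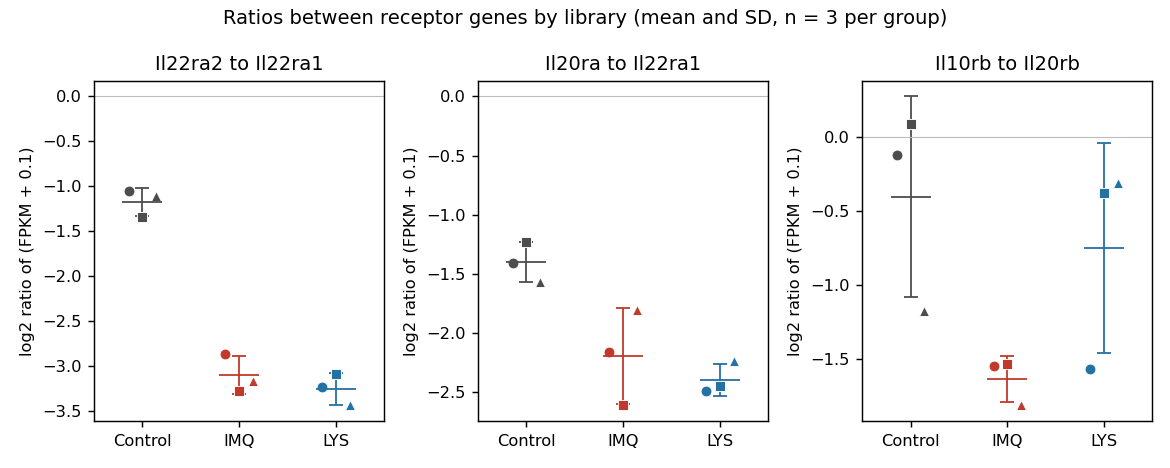
Log2 ratios of (FPKM + 0.1) between pairs of receptor genes in each library, with replicate number as the symbol (circle 1, square 2, triangle 3) and the mean and SD of 3 libraries. Il22ra2 to Il22ra1 lies between -1.35 and -1.05 in control and at or below -2.86 in all IMQ and LYS libraries.

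Profiles over the 9 libraries were compared by the root-mean-square difference of log2(CPM + 0.5) after centring, among 14758 genes. Among the members, Il20ra and Il20rb were the closest pair (0.25), followed by Il22ra1 and Il20rb (0.41). Il20 and Il22 were the closest ligand pair (0.50), but control levels near 0 leave part of such distances to the pseudocount. For Il22ra1 the nearest genes were Tmem154, Ephx3 and Hip1r (each 0.12, where the median gene was at 1.36). For Il20rb they were Clca2, Olfm2 and Baiap2l1 (0.10 to 0.11), and for Il20ra Skint8, Mgst2 and Acer1 (0.14 to 0.17). For Il22ra2 they were Epha1, Gata3 and Ocln (0.13 to 0.15, where the median gene was at 0.77). Il10rb lay nearest to Thbd, Crlf2 and Tmem94 (0.10 to 0.12, where the median gene was at 0.59). Ligand profiles were matched less closely, with Csf3r, Cyp7b1 and Cd163l1 for Il19 (0.43 to 0.51), Shroom1, Plet1 and Steap1 for Il20 (0.39 to 0.47) and Gpr55, Bcl2l15 and Tnfrsf9 for Il22 (0.34 to 0.36). All profiles share the same 9 libraries and their group means.

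In the signal chain under these receptors, 3 of 12 genes were called higher in IMQ against control and 9 were not called, a share close to the 24.1% of all genes tested that were called higher. Stat3, the main transcription factor of the family, rose from 168.2 ± 9.78 to 435.0 ± 33.3 CPM (SD, n = 3), or by 1.43 ± 0.13 on the log2 scale (SE, adjusted p = 7.15e-05, edgeR). Socs3, a feedback inhibitor of this signal, rose from 18.5 ± 3.87 to 151.4 ± 48.1 CPM (log2 3.09 ± 0.27, adjusted p = 6.12e-05), and the third was its relative Socs1. Jak1, the kinase bound to the private chains, was at 221.3 ± 13.8 and 276.1 ± 4.03 CPM and was not called (log2 0.38 ± 0.11). In LYS, Stat3 stood at 316.9 ± 96.3 CPM and Socs3 at 136.8 ± 38.5 CPM. Their log2 differences from IMQ were -0.45 ± 0.24 and -0.14 ± 0.29 (SE), with adjusted p of 0.211 and 0.748. The list's median log2 fold change was 0.34 in IMQ against control and 0.034 in LYS against IMQ.

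Keratinocyte genes known to respond to these cytokines were high in both treated groups. In IMQ against control, 18 of 19 tested were called higher, where 24.1% of all genes were. In LYS against control 19 of 19 were, where 15.1% of all genes were. S100a9, an antimicrobial calcium-binding protein also abundant in neutrophils, was at 16.1 ± 12.7 CPM in control, 13378 ± 2344 in IMQ and 7045 ± 3352 in LYS. Its partner S100a8 rose by 9.60 ± 0.93 on the log2 scale in IMQ, and Krt16, a keratin of stressed epidermis, by 6.98 ± 0.50 (adjusted p = 9.70e-05 and 2.87e-05, edgeR). The list's median was 5.06, or 4.61 with the 1 gene at the floor set to its bound. In LYS against IMQ none was called, and its median was -0.39, beside 0.036 over all genes. At an unadjusted p under 0.05, 1 of 21 was higher and 2 were lower, below the 19.3% and 15.9% of all genes.

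Terminal differentiation genes were high in IMQ skin. All 8 were called higher in IMQ against control, where 24.1% of all genes were. Their median log2 fold change was 3.17, beside -0.062 over all genes. In LYS against IMQ all 8 had an unadjusted p under 0.05 and were lower (median -1.35), where 15.9% of all genes tested were lower at that p, and none was called. Krt1, a suprabasal keratin, was at 2055 ± 653 CPM in control, 18350 ± 3774 in IMQ and 6710 ± 2873 in LYS, with a log2 difference of LYS from IMQ of -1.45 ± 0.41 (adjusted p = 0.0677, edgeR). Its partner Krt10 gave -1.62 ± 0.36 and Lor, the loricrin gene of the cornified envelope, -1.81 ± 0.55 (adjusted p = 0.0591 and 0.0759). Keratinocyte markers in LYS summed to 10772 to 19692 CPM, and 3 of 10 were lower than in IMQ at an unadjusted p under 0.05. Their part in the lower receptor and differentiation values was not tested.

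Of the cytokines and regulators that act before the family, 10 of 12 tested were called higher in IMQ against control (24.1% of all genes), none in LYS against IMQ (0% of all genes) and 8 of 10 higher in LYS against control (15.1% of all genes). Il1b, an inflammatory cytokine, was at 1.43 ± 0.40 CPM in control, 1045 ± 615 in IMQ and 374.1 ± 298.1 in LYS. Rora, a nuclear receptor used by type 17 lymphocytes, measured 348.3 ± 59.3 CPM in IMQ and 159.9 ± 15.7 CPM in LYS (log2 -1.12 ± 0.17, adjusted p = 0.0591, edgeR), and Maf measured 119.9 ± 4.51 and 233.4 ± 69.7 CPM. Il17a, Il17f and Il23a were picked after their values were seen, because LYS replicate 3 was the lowest of the 6 treated libraries for each, as it was for Il22. Il17a, the type 17 cytokine, had 89, 56 and 4 counts in LYS replicates 1 to 3 and 32, 27 and 38 in IMQ. Il17f had 93, 123 and 17 counts in LYS and 89, 59 and 65 in IMQ. Il23a, which sustains type 17 cells, had 98, 31 and 4 counts in LYS and 32, 119 and 89 in IMQ. As for Il22, LYS replicates 1 and 2 lay above every IMQ library in CPM for Il17a and Il17f, but for Il23a replicate 1 lay within the IMQ range and replicate 2 below it.

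Of 3 other genes of the wider interleukin-10 family tested, 2 were called higher in IMQ against control, where 24.1% of all genes were. Il10ra, the ligand-binding chain for interleukin-10 that pairs with IL-10RB, was at 15.5 ± 1.17 CPM in control, 35.2 ± 3.26 in IMQ and 71.8 ± 22.1 in LYS. It was called higher in IMQ and in LYS against control (adjusted p = 1.37e-04 and 8.21e-04, edgeR), and its log2 difference of LYS from IMQ was 1.03 ± 0.24 (adjusted p = 0.0591). Ifnlr1, the neighbour of Il22ra1, was at 4.85 ± 0.80, 11.5 ± 1.43 and 5.60 ± 3.03 CPM and was called in IMQ against control (adjusted p = 9.52e-04). Il10 itself had 22, 13 and 13 counts in control and 0, 3 and 7 in IMQ. In LYS it had 2, 32 and 54, so that replicate 3 was highest, where Il22 was lowest.

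**Figure D4:**
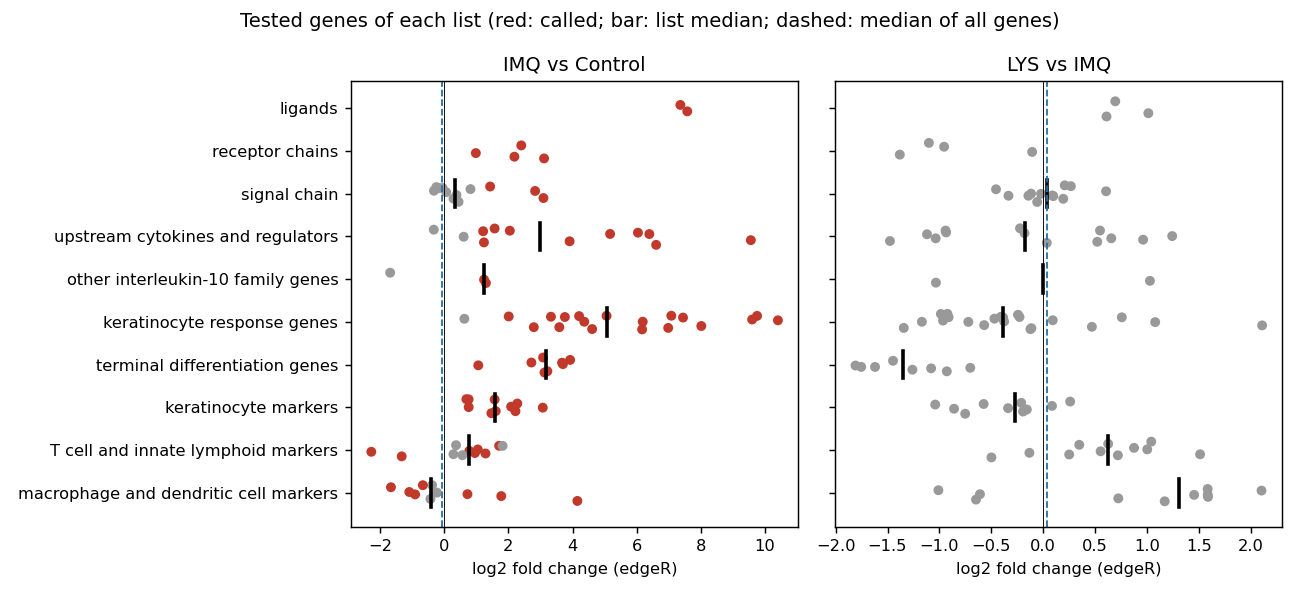
Log2 fold change of each tested gene by list in IMQ against control and LYS against IMQ (edgeR); horizontal scales differ, red marks a called gene, black bars the list median and the dashed line the median of all genes. Terminal differentiation genes and 3 of 4 receptor chains lie to the left in LYS against IMQ, and no gene there is called.

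Markers of the cells that could carry these genes varied with the groups. T cell and innate lymphoid markers, which mark the known sources of Il22, had 5 called higher and 2 lower of 11 in IMQ against control, where 24.1% of all genes were called higher and 26.9% lower. In LYS against IMQ, 3 of 11 were higher at an unadjusted p under 0.05, where 19.3% of all genes were. Their summed level was 222 to 272 CPM in control, 66.5 to 123 CPM in IMQ and 147 to 172 CPM in LYS, set mostly by Thy1, which other skin cells also express. The defining genes did not move together. Of those picked after their values were seen, Cd3e was at 1.26, 2.51 and 3.87 CPM on average in control, IMQ and LYS and was called higher in IMQ against control. Cd2 was at 2.79, 1.06 and 1.75 CPM and was called lower, and Trac was at 0.602, 0.732 and 0.946 CPM and was not called. Macrophage and dendritic cell markers summed to 1768 to 2770, 1612 to 1857 and 2406 to 4991 CPM, with 3 of 10 called higher and 4 lower in IMQ against control. Neutrophil markers, all 7 tested being called higher in IMQ, summed to 44.8 to 88.5, 20635 to 27719 and 6055 to 17150 CPM. That sum was set mostly by S100a8 and S100a9, which are also in the list of keratinocyte response genes. Csf3r, the receptor for granulocyte colony-stimulating factor, was at 88.8 ± 14.4 CPM in IMQ and 167.9 ± 58.9 CPM in LYS (SD, n = 3), a log2 difference of 0.92 ± 0.28 (SE, adjusted p = 0.0769, edgeR). Mmp9 also had a higher mean in LYS than in IMQ, whereas Cxcr2, Retnlg, Mmp8 and Ly6g had lower means. The median log2 difference of the tested neutrophil markers was -0.84. Fibroblast markers fell in IMQ, 8 of 8 called lower, with sums of 22996 to 29435, 3335 to 10588 and 9259 to 18797 CPM. Skeletal muscle markers, 6 of 7 called lower in IMQ, summed to 10471 to 11356, 1853 to 4641 and 4590 to 9356 CPM, so the tissue labelled skin also held muscle RNA. No marker of any list was at 0 in all libraries. The part of these cell types in the values of the members was not tested.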

How the data were processed

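RNA of back skin was sequenced after TRIzol extraction and NEBNext Ultra library preparation, with 3 libraries in each of the control, IMQ and LYS groups. The authors deposited raw counts per Ensembl gene and FPKM in the same table of 29205 genes. The submitters' processing notes name HISAT2, HTSeq 0.13.5 and GRCm38, without roles or parameters. The FPKM lengths of the 9 genes equalled the exon bases of GENCODE M21. Libraries of the same group were not duplicates, with a chi-square of 18.4 to 109 for each degree of freedom between pairs.

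Counts were tested with edgeR 4.0.16 in R 4.3.3 (filterByExpr, TMM, quasi-likelihood, two-sided, Benjamini-Hochberg over all genes tested), with the 6 libraries of each comparison and no covariate. The fold threshold of 0.58 is the study's. SE is the absolute log2 fold change divided by the square root of F. A gene at 3 counts or fewer in every library of a group was set to 3 counts per library for a bound, which covers counting error only. Ratios used FPKM + 0.1. The edgeR and DESeq2 fits were run on counts simulated from the fitted model, which checks the code and not the calls. Alternatives were DESeq2 1.42.0, limma 3.58.1 on log2(FPKM + 1), other scaling, no filter, all 9 libraries, a fold threshold of 1, other pseudocounts, a replicate block and leaving out each library.

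All 9 members are named, with the 3 most abundant genes of each other list and the 3 genes nearest in profile to each member (mean CPM of at least 1). Of the lists, those of marker genes are given by counts and sums. The members and lists were chosen with earlier results of these data known. Motifs and overlaps were read with Python 3.11.15, transcripts were aligned with Biopython 1.88 and figures drawn with matplotlib 3.10.9.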

Additional observations from a re-analysis of the deposited data

How the results depend on the processing

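In IMQ against control, scaling to library totals or limma on FPKM called 5 members, beside 57.9% and 45.9% of all genes. For LYS against IMQ, the study did find differentially expressed genes at the same thresholds. In the counts tested here, edgeR with the settings above called 0 genes in that comparison. The number was 3345 with DESeq2, 2419 without the filter and 3040 with all 9 libraries. It was 0 to 4262 when a library was left out (1873 without IMQ replicate 1 and 4262 without LYS replicate 1). Members called, all lower, numbered 4 with DESeq2, 4 without the filter and 4 with all 9 libraries, beside 9.49%, 3.53% and 8.62% of all genes called lower. They numbered 0 to 4 when a library was left out, beside 0% to 26.8% of all genes called. In LYS against control, a fold threshold of 1 on the log2 scale called 2910 genes (18.2%) and 3 members. DESeq2 called 8 members higher, beside 14.1% of all genes. Leaving out a library gave 2579 to 5072 genes (15.8% to 30.8%) and 3 to 7 members. The lowest of these, 2579 genes and 3 members, came without control replicate 1, and Il20ra, Il20rb and Il10rb were then no longer called.

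The log2 difference of Il10rb between LYS and IMQ turned positive with library totals (0.16), with limma on FPKM (0.13) and without LYS replicate 1 (0.0051, in a range of -0.19 to 0.0051 when a library was left out). That of Il22ra2 between LYS and control ran from -0.51 to 0.18 when a library was left out and was positive without control replicate 3 (0.18) and without LYS replicate 3 (0.16). The log2 ratio of Il22ra2 to Il22ra1 between LYS and IMQ was 0.078 with a pseudocount of 1 FPKM. The log2 ratio of Il10rb to Il20rb between LYS and control ran from -0.73 to 0.061 when a library was left out, the highest coming without LYS replicate 1. Scaling to library totals moved the median of all genes by -0.45 in IMQ against control, 0.25 in LYS against IMQ and -0.14 in LYS against control. The share of calls that were higher went from 47.3% to 25.9% in IMQ against control and from 53.9% to 41.5% in LYS against control. The cause of these shifts was not tested. With the replicate number as a block, 3 members were called in LYS against control (Il19, Il22ra1 and Il10rb), beside 19.5% of all genes. That block gave 7 members in IMQ against control, beside 50.4% of all genes, and 0 in LYS against IMQ, beside 0%. Same-numbered libraries did not deviate together (correlations of -0.43 to 0.18), so the numbers are not a pairing. Depth limits Il20, Il22 and Il24 most, at 46 counts or fewer per library.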
